A study of Homo sapiens with 9 samples.

Results

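The 35 genes described here belong to the epithelial-mesenchymal programme and to invasion. They comprise 4 epithelial adhesion and splicing genes, 6 transcription factors of the transition, 3 mesenchymal cell markers, 9 matrix proteins, 3 matrix proteases, 7 adhesion receptors and 3 signals or signal receptors. The genes were chosen by name, out of 20037 protein-coding genes in a RefSeq gene table of GRCh38.p14, and regions of open chromatin were given to them by position alone. A region was assigned to a gene when an end of that gene, its start or its far end, was the nearest protein-coding gene end and lay within 50 kb. By this rule the 35 genes held 165 of the 90959 regions called in normoxia, 137 of the 77448 called in hypoxia with a control hairpin, and 113 of the 62774 called in hypoxia with ZHX2 knocked down. Regions of the 3 lists that overlapped were also merged into sites, of which the genes held 172 out of 97801.

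Open chromatin was mapped by ATAC-seq, a method in which a transposase cuts accessible DNA and tags it for sequencing, in T47D, an oestrogen receptor-positive luminal breast cancer line. The 9 samples fell into 3 groups of 3: a control short hairpin (shCtrl) in normoxia, the same hairpin in hypoxia, and a hairpin against ZHX2 (shZHX2), a nuclear protein with zinc fingers and homeoboxes, in hypoxia. All groups had been infected with lentivirus and selected with hygromycin or puromycin, so the controls carry a hairpin vector too, and no shZHX2 group in normoxia is among the samples. The oxygen level, the time in hypoxia, the number of hairpins used against ZHX2, and whether the 3 samples of a group were separate cultures are not stated in the labels. Each group is represented by 1 list of regions with no values per sample. No difference between lists therefore has a replicate check or a p-value, and the 95% Wilson intervals given with percentages cover counting error only.

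In the epithelial-mesenchymal transition, cells held together by E-cadherin loosen their contacts, take on a vimentin-containing cytoskeleton and make more fibronectin and collagen. The SNAI, ZEB and TWIST factors drive the switch, and SNAI and ZEB proteins repress E-cadherin by binding E-boxes of the sequence CACCTG. Luminal breast cancer lines such as T47D are epithelial, and low oxygen is one of the signals known to promote the switch in tumours.

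Among the annotated starts matched in the promoter table, that of ZEB2 was the only one called in 1 list and not in the others, so its promoter is shown with those of ZEB1, its close relative, called in every list, and of TWIST2 and VIM, called at the start in none. Each sequence is the 250 bases before an annotated start, 5′ to 3′ on the strand of the gene, from the RefSeq promoter table of GRCh38.p14. Capitals mark 2 kinds of motif searched on both strands: the E-box CACCTG, written CAGGTG on the opposite strand, and the hypoxia response core ACGTG or GCGTG, written CACGT or CACGC on the opposite strand. The 2 forms of the core can overlap each other. The sequences lie at chr2:144520120-144520369 on the minus strand for ZEB2, chr10:31318167-31318416 on the plus strand for ZEB1, chr2:238847835-238848084 on the plus strand for TWIST2 and chr10:17227991-17228240 on the plus strand for VIM.
ZEB2: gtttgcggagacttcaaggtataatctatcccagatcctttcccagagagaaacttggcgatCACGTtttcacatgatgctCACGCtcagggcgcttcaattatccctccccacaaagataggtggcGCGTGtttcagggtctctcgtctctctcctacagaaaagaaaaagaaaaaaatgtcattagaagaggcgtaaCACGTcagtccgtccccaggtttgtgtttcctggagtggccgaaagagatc
ZEB1: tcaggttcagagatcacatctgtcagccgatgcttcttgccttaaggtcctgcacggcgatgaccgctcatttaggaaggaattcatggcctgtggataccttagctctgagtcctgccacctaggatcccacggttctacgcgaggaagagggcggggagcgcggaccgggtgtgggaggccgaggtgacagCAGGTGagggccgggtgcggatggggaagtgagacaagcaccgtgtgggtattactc
TWIST2: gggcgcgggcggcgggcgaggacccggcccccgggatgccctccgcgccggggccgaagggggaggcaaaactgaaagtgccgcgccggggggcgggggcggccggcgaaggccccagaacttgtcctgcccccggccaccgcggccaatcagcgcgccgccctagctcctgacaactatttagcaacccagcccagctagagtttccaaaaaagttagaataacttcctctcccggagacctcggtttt
VIM: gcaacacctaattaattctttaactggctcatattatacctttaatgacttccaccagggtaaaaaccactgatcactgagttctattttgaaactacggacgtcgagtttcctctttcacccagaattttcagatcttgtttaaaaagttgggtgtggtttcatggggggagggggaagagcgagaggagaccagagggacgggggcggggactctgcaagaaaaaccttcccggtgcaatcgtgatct

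The region called at the ZEB2 start in normoxia covered 205 of the 250 bases shown, and no region of either hypoxia list covered any of them. The ZEB1 sequence was covered over 163 bases in normoxia, 183 in hypoxia shCtrl and 216 with shZHX2. The ZEB2 sequence holds 4 hypoxia response cores and no CACCTG, and the ZEB1 sequence shown holds a single CAGGTG. ZEB1 has further annotated starts. Before the start in another ZEB1 window, chr10:31318568-31318867, which was called in every list, there are 3 hypoxia response cores. GC content was 48.0% in the ZEB2 sequence, 59.2% in ZEB1, 68.4% in TWIST2 and 46.0% in VIM.

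Promoter windows from RefSeq, which run from 250 bases before to 50 bases after an annotated start, were matched for 21 of the 35 genes and gave 35 windows. A window was touched by a region for 16 of the 21 genes in normoxia, against 71.2% of 15843 genes with a window. It was touched for 15 of 21 in hypoxia shCtrl, against 69.8%, and for 15 of 21 with shZHX2, against 68.7%. COL6A3, MMP14, SPARC, TWIST2 and VIM had no region on the window in any list. Motifs were searched in the 250 bases before the start only. There, 4 of the 35 windows held CACCTG or CAGGTG and 16 held a hypoxia response core, where 17.0% and 49.3% of 22199 promoter windows hold them. Several windows can belong to the same gene, and the 4 belong to ITGA6, S100A4 and ZEB1. A match to these letters is a description of the sequence and not a bound site.

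Most of the 35 genes were open at an end in every list. A region came within 1 kb of the gene's own start or far end at 30 genes in normoxia, 27 in hypoxia shCtrl and 26 with shZHX2. Among all protein-coding genes the percentages were 74.2%, 72.3% and 70.0%. The counts of the 35 genes differed from these shares by few genes. No interval was computed for them, and they are not read as a trait of the genes. VIM, SPARC, COL3A1, MMP2 and MMP9 had no such region in any list. ZEB2 and TWIST2 had one in normoxia only, and COL6A3 and PDGFRA crossed the 1 kb limit without losing their site, as described with these genes.

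Regions at a gene end and distal regions behaved differently. In what follows a gene-end region comes within 1 kb of an end of the gene it is assigned to, and a distal region is any other assigned region. The 35 genes held 34, 30 and 30 gene-end regions in normoxia, hypoxia shCtrl and shZHX2, and 131, 107 and 83 distal regions. Merged over the lists, 31 of 34 gene-end sites were called in all 3 lists, or 91.2% (95% interval 77.0% to 97.0%), beside 88.4% of 15126 gene-end sites of all genes. Over both classes 104 of 172 sites, or 60.5%, were called in all 3 lists, beside 63.6% of 66484 sites of all genes. Of the 138 distal sites, 73 were called in all 3 lists, or 52.9% (95% interval 44.6% to 61.0%), beside 56.3% of 51358 distal sites of all genes. Among the other distal sites 27 were called in normoxia only, 26 in both shCtrl lists, 5 in hypoxia shCtrl only, 4 in normoxia and with shZHX2, 2 in both hypoxia lists and 1 with shZHX2 only.

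**Figure D1:**
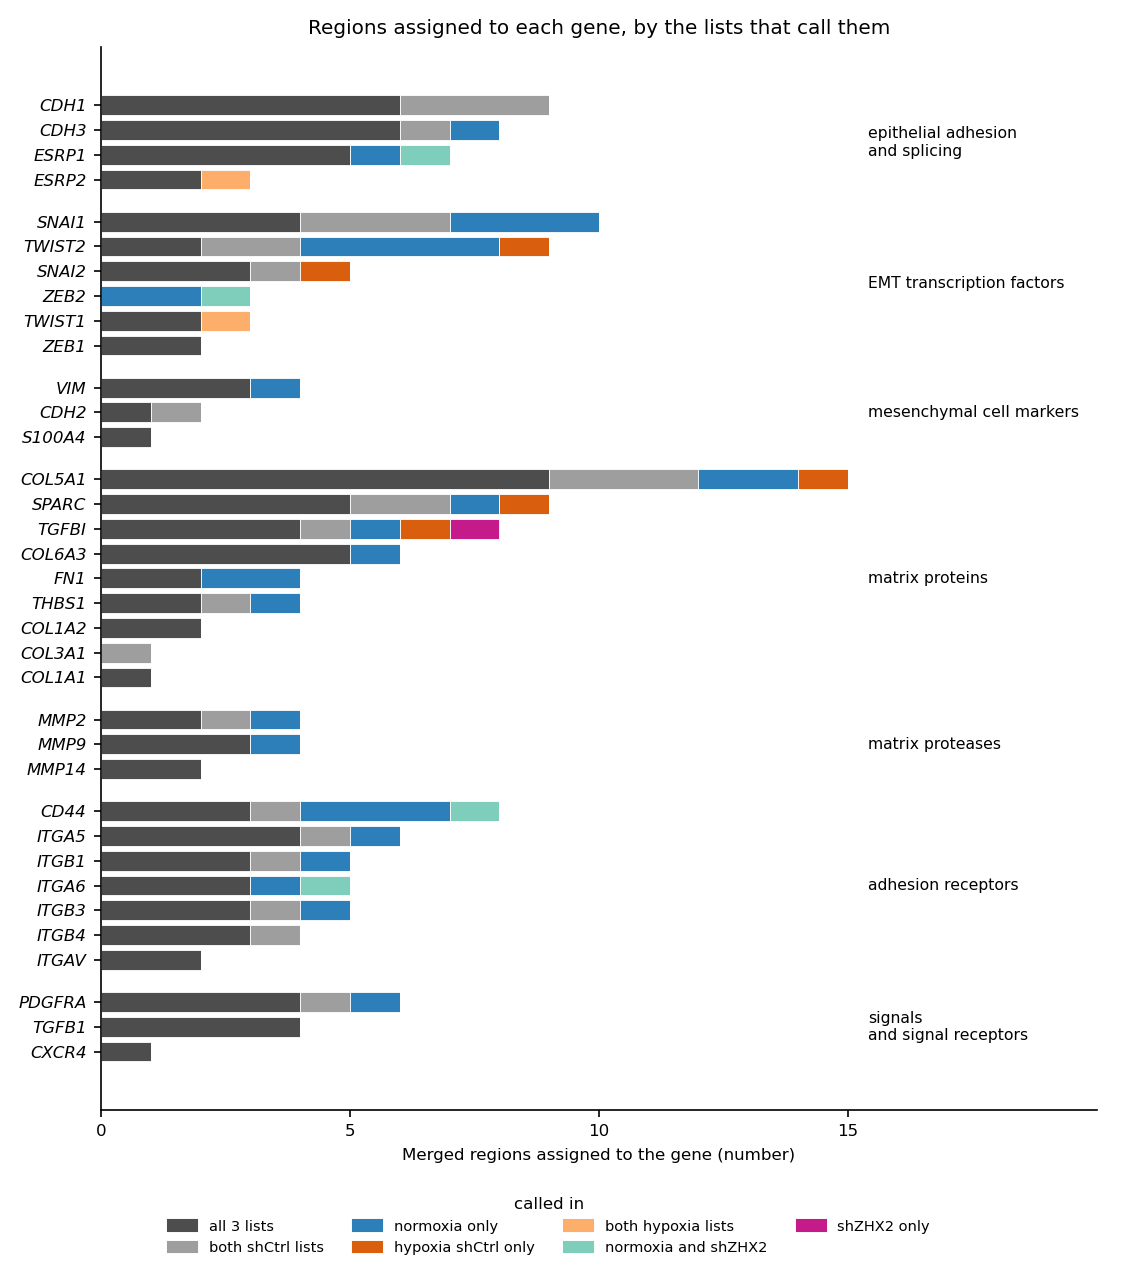
Number of merged regions assigned to each of the 35 genes (horizontal axis), grouped by role, with the colour of each bar segment showing which of the 3 lists called the region. ZEB2 alone among the transcription factors has no region called in all 3 lists, and COL5A1 has the most regions, 15.

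The median number of regions per gene was 4, 3 and 3 in the 3 lists, beside 2 over all protein-coding genes. By the assignment rule this number also depends on gene length and on how near the next gene lies, which were not matched. Every list gives each region a score and a fold enrichment over local background. Both are the authors' own values and are used here to describe or rank regions within a list. Over all genes the median fold of gene-end regions was 5.39 in normoxia, 5.60 in hypoxia shCtrl and 5.94 with shZHX2. For distal regions these medians were 3.92, 4.05 and 4.55. Folds given for the same site in several lists are therefore not read as a change in opening. The strongest region of a set is the one with the highest score, which need not have the highest fold. The median gene-end region of the 35 genes ranked at the 76.1th percentile of its list by score in normoxia, the 71.6th in hypoxia shCtrl and the 66.5th with shZHX2. The corresponding medians over all gene-end regions were 85.7, 84.7 and 83.7. Distal regions of the genes had median ranks of 44.0, 39.8 and 42.8, beside 46.9, 46.3 and 44.9 for all distal regions. The lists differ in length, so these ranks describe each list and show no change.

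The first comparison set the shCtrl lists of normoxia and hypoxia side by side, and asked which regions of these genes were called in one oxygen condition and not in the other. Of the 34 gene-end regions of normoxia, 3 touched no region of hypoxia shCtrl, or 8.82% (95% interval 3.05% to 23.0%), where 5.17% of all gene-end regions did so. All 3 belong to transcription factors, with 1 at ZEB2 and 2 at TWIST2. With the lists kept to equal length by score, 0 of the 31 normoxia gene-end regions left were absent from hypoxia shCtrl. With equal length by fold, 2 of 30 were absent, or 6.67%, and in the other direction 1 of 28, or 3.57%. Of the 131 distal regions, 31 were not called in hypoxia, or 23.7% (95% interval 17.2% to 31.6%), beside 21.7% of all distal regions and 23.0% expected from their score deciles. The percentage at distal regions was thus close to the background. With lists of equal length by score the distal percentages were 17.6% for normoxia not hypoxia and 14.6% for hypoxia not normoxia. Cutting lists to equal length draws both directions together by construction. Together the 34 regions, 20.6% of 165 against 17.8% for all genes, fell in 20 of the 35 genes, and TWIST2 and CD44 had 4 each, ZEB2 and SNAI1 3 each.

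Strength separated the regions that were not called from the others. Among the weaker 50% of the normoxia list by score, 30 of 73 distal regions of the genes were not called in hypoxia, or 41.1%, beside 40.2% for all genes. Among the stronger 50% the count was 1 of 58, or 1.72%, beside 0.636%. In the other direction 7 of 107 distal regions of hypoxia shCtrl were not called in normoxia, or 6.54% (95% interval 3.20% to 12.9%), beside 6.57% of all distal regions. None of the 30 gene-end regions of hypoxia shCtrl was absent from normoxia, which allows a percentage of up to 11.4%, and the background was 1.26%. These 7, 5.11% of 137 regions against 5.19% for all genes, fell in 7 genes, ESRP2, TWIST1, SNAI2, TWIST2, SPARC, COL5A1 and TGFBI.

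**Figure D2:**
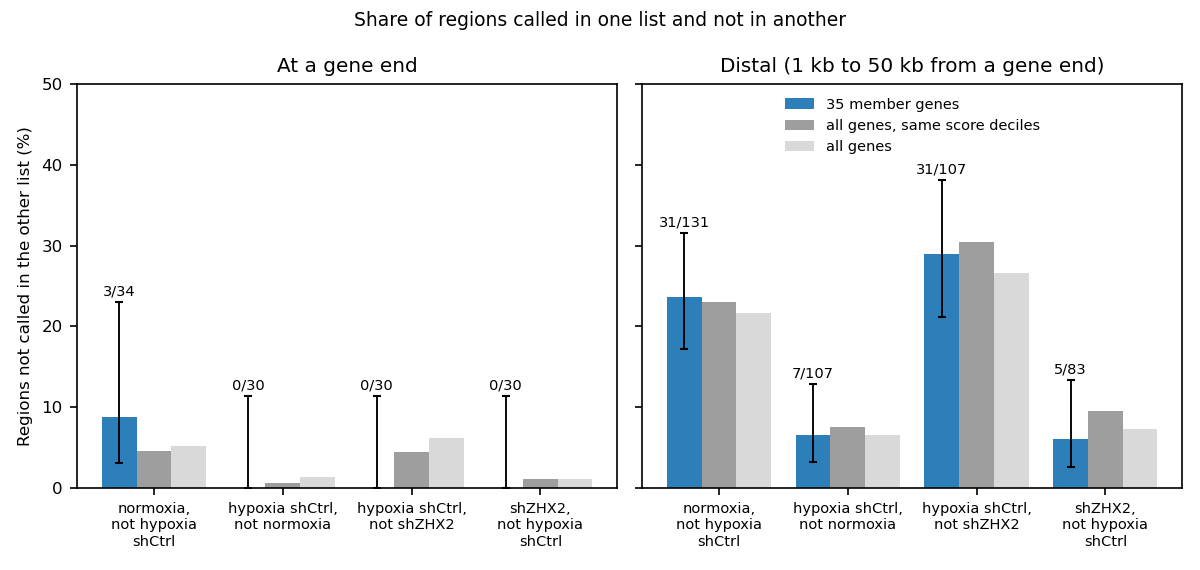
Percentage of regions called in the first-named list and not in the second (vertical axis), for gene-end regions (left) and distal regions (right), with the 35 genes in blue, all genes at the same score deciles in dark grey and all genes in light grey. Error bars are 95% Wilson intervals for counting error, the fractions give the counts, and at distal regions the grey bars lie within the intervals of the blue bars in all 4 comparisons.

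The second comparison, within hypoxia, asked which regions of the genes were called with the control hairpin and not with the hairpin against ZHX2, and the reverse. None of the 30 gene-end regions of hypoxia shCtrl was absent from the shZHX2 list, which allows up to 11.4%, while 6.17% of all gene-end regions were absent. Of the 107 distal regions 31 were absent, or 29.0% (95% interval 21.2% to 38.2%), beside 26.6% of all distal regions and 30.5% expected from their score deciles. These 31 regions, 22.6% of 137 against 21.3% for all genes, fell in 18 of the 35 genes. COL5A1 had 4 of them, and CDH1, SNAI1, TWIST2 and SPARC had 3 each. Again the weaker 50% of the list held nearly all of them, 30 of 69 or 43.5% beside 47.5% for all genes, and the stronger 50% held 1 of 38, or 2.63% beside 2.17%.

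In the lists as deposited, few regions of the genes were called with shZHX2 and not in hypoxia shCtrl. None of the 30 gene-end regions was, beside 1.08% of all, and 5 of 83 distal regions were, or 6.02% (95% interval 2.60% to 13.3%), beside 7.26% of all distal regions. They lay near ESRP1, ZEB2, ITGA6, CD44 and TGFBI, and the first 4 of these sites were also called in normoxia. Over all classes these were 5 of 113 regions, or 4.42% beside 5.43%. Whole lists cut to equal length have near-equal numbers of absent regions in both directions by construction. The percentages at equal length therefore do not bear on the imbalance. At equal length by score, 13.3% of distal regions called with shZHX2 were absent from hypoxia shCtrl and 14.6% the reverse. At equal length by fold the percentages were 19.3% and 17.5%. At gene ends, 2 of 30 regions called with shZHX2 were absent from hypoxia shCtrl by fold and 0 of 28 the reverse. By score, 0 of 30 were absent in either direction. The hypoxia shCtrl list enters both comparisons, so a region weak in that list can appear in each of them. Set directly against normoxia, the shZHX2 list lacked 3 of 34 gene-end regions, beside 9.50% of all, and 53 of 131 distal regions, or 40.5% beside 36.7%, which makes 56 of 165 in all, or 33.9% beside 30.3%. In the other direction 3 of 83 distal regions called with shZHX2 were not called in normoxia, or 3.61% beside 4.65% of all, and none of the 30 gene-end regions was, beside 0.690%, which makes 3 of 113 in all, or 2.65% beside 3.48%.

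To describe changes in strength where a site stayed called, each site called in all 3 lists was ranked by score among the same sites in each list. The percentile is called its standing below. Because the same sites are ranked 3 times, list length does not enter the ranks themselves. It does enter the choice of sites, since a site absent from any list is left out. This measure was added after the data were seen. A merged site counts as gene-end when the region of any list there does, which matters for the COL6A3 and PDGFRA sites described below. From normoxia to hypoxia shCtrl, 1 of 31 gene-end sites of the genes stood lower by 20 points or more and 1 of 31 higher, where 0.897% and 0.680% of 13377 gene-end sites did. At distal sites 6 of 73 stood lower and 1 of 73 higher, where 3.53% and 2.51% of 28901 did. From hypoxia shCtrl to shZHX2, 2 of 31 gene-end sites stood lower and 1 of 31 higher, beside 2.22% and 1.44%, and 4 of 73 distal sites stood lower and 5 of 73 higher, beside 7.90% and 5.53%. The gene-end sites with these shifts belong to FN1 and PDGFRA in the first comparison and to PDGFRA, COL6A3 and MMP14 in the second. These genes are singled out because of their values. The sites of all genes set beside them were not matched for standing.

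**Figure D3:**
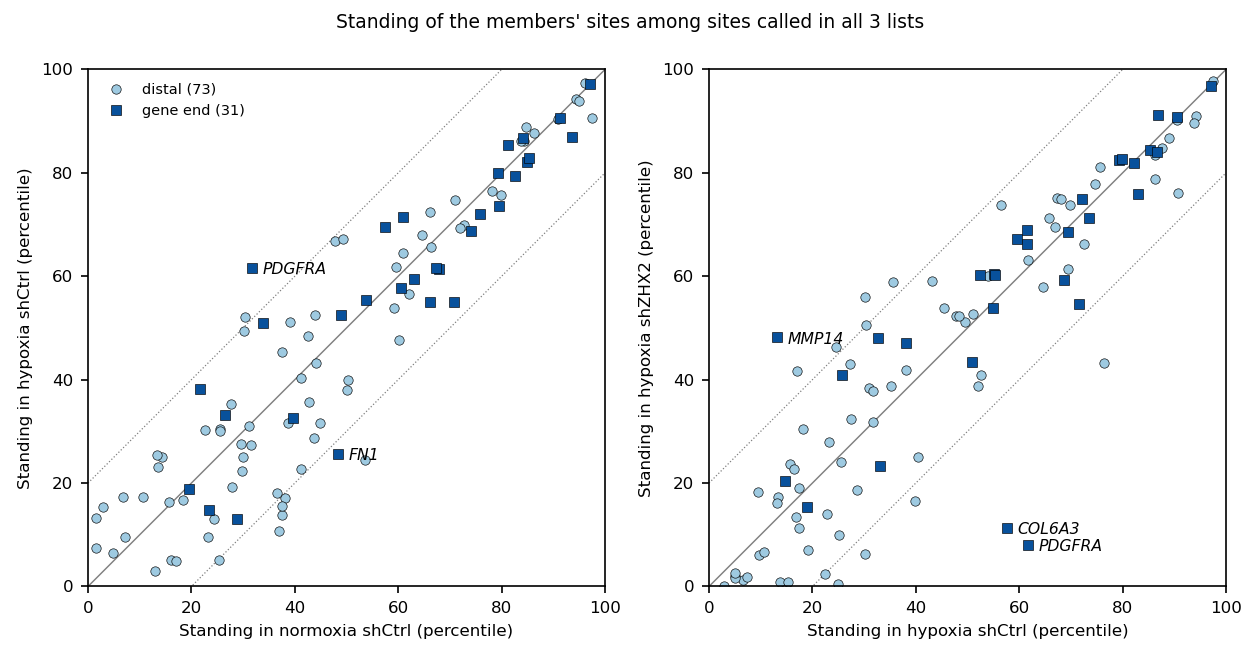
Standing by score, in percentiles, of the 104 sites of the 35 genes that were called in all 3 lists, in hypoxia shCtrl against normoxia (left) and in shZHX2 against hypoxia shCtrl (right), with gene-end sites as squares and distal sites as circles. The solid line marks equal standing and the dotted lines a shift of 20 points, and the named squares are the gene-end sites beyond the dotted lines.

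The 4 epithelial genes were open at an end in every list. Of their 27 sites 19, or 70.4%, were called in all 3 lists, beside 63.6% over all genes. The share was 71.4% (5 of 7) for mesenchymal markers, 70.0% (7 of 10) for matrix proteases and 81.8% (9 of 11) for signal genes. At the epithelial genes 11.1% of normoxia regions were not called in hypoxia shCtrl, where the same score deciles gave 11.5%. Of their hypoxia shCtrl regions 16.7% were absent with shZHX2, where the same deciles gave 20.3%. CDH1 encodes E-cadherin, the main adhesion molecule of epithelial cells. Its end at 68737292 on chromosome 16 was covered by a region with a fold of 4.59 in normoxia, 5.30 in hypoxia shCtrl and 5.64 with shZHX2, and its standing was 81.3, 85.4 and 84.5. All 9 regions of CDH1 in normoxia were also called in hypoxia shCtrl, and 3 of those 9 were not called with shZHX2. The strongest of the 3, chr16:68749584-68749825 within the gene, had a fold of 2.40 and ranked at the 22.3th percentile of the hypoxia shCtrl list. The 5 distal CDH1 sites that remained in all lists stood between 31.0 and 88.9 in hypoxia shCtrl.

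CDH3, the gene of P-cadherin, lies beside CDH1 and had a region over its end in each list with folds of 4.98, 4.78 and 5.09. Its strongest distal region, 28933 bp from the nearer end in normoxia, had folds of 9.72, 10.2 and 10.6 and stood at 94.3, 94.2 and 91.1. Another distal CDH3 site, chr16:68722208-68722767, stood at 37.5 in normoxia, 13.8 in hypoxia shCtrl and 0.8 with shZHX2. That site was thus near the lower limit of calling in the knockdown list.

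ESRP1 and ESRP2 encode splicing regulators that maintain epithelial isoforms of many transcripts. A wide region covered an end of ESRP1 in each list, and its site stood at 93.7, 86.9 and 91.2. Hypoxia shCtrl called this site as a single region of 3764 bp. The other lists called a region of 2645 bp (normoxia) or 2648 bp (shZHX2) and a separate distal one of 463 or 471 bp. A distal region of ESRP1 at chr8:94600928-94601309 was called with shZHX2 at a fold of 3.49 and in normoxia at a fold of 4.61, but not in hypoxia shCtrl. At ESRP2 the gene-end site stood at 70.8, 55.1 and 60.4. The distal region with the highest score among the 4 genes, at chr16:68237222-68238108 when merged over the lists, lay 1152 bp from an end of ESRP2 in both shCtrl lists, with a fold of 4.0 in normoxia and 4.52 in hypoxia shCtrl, and 1095 bp away with a fold of 4.91 with shZHX2. Its folds were below those of the CDH3 region. ESRP2 also had a distal region called in both hypoxia lists and not in normoxia, chr16:68202058-68202391 in hypoxia shCtrl, with folds of 3.67 and 4.70. In normoxia and in hypoxia shCtrl a second region touching an end of ESRP2 was assigned to its neighbour NFATC3.

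The 6 transcription factor genes held the lowest share of stable sites among the 7 roles, with 13 of 32, or 40.6%, called in all 3 lists, beside 63.6% over all genes. Of their 29 normoxia regions 10 were not called in hypoxia shCtrl, or 34.5% (95% interval 19.9% to 52.7%), where regions of all genes at the same score deciles gave 33.4%. Of their 22 regions of hypoxia shCtrl, 8 were absent with shZHX2, or 36.4% (95% interval 19.7% to 57.0%), where the same score deciles gave 32.4%. Their regions were weak, with a median rank at the 26.5th percentile of the normoxia list. The percentages are thus close to those of regions equally weak elsewhere.

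ZEB2 encodes a zinc finger repressor of E-cadherin. Its normoxia region over the annotated start, chr2:144520067-144520324, spanned 258 bp with a fold of 3.44 and ranked at the 23.1th percentile of the list. A distal normoxia region inside the gene, 15621 bp from the start, had a fold of 3.19 and was called in neither hypoxia list. The other distal region, 5252 bp from the far end in normoxia, had a fold of 3.38 in normoxia, was not called in hypoxia shCtrl, and was called again at chr2:144389633-144389872 with a fold of 3.43 with shZHX2. ZEB2 therefore had 3 regions in normoxia, 0 in hypoxia shCtrl and 1 with shZHX2, and was the only 1 of the 35 genes with no region in hypoxia shCtrl. Its normoxia regions stood at percentiles 23.1, 21.8 and 14.6 of the list by score, and none of the 3 is left when the normoxia list is kept by score to the length of the shortest list.

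TWIST2, a basic helix-loop-helix factor, had 8 regions in normoxia, 5 in hypoxia shCtrl and 2 with shZHX2. Its 2 gene-end regions lay at the far end and not at the start: chr2:238908990-238909779 with a fold of 2.89 and chr2:238910987-238911191 with a fold of 3.00, both in normoxia only. The strongest normoxia region of TWIST2 without a hypoxia call, chr2:238924940-238925241, had a fold of 3.84. The strongest hypoxia shCtrl region without a shZHX2 call, chr2:238881684-238882042, had a fold of 4.36. TWIST2 also had a region called in hypoxia shCtrl alone, chr2:238945781-238946074, with a fold of 3.75. The strongest distal region of the 6 factors in normoxia was a TWIST2 region, chr2:238864217-238864694, 16132 bp inside the gene from its start, with folds of 7.44, 7.49 and 9.20 in the 3 lists, which stood at 66.4, 65.7 and 71.2.

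**Figure D4:**
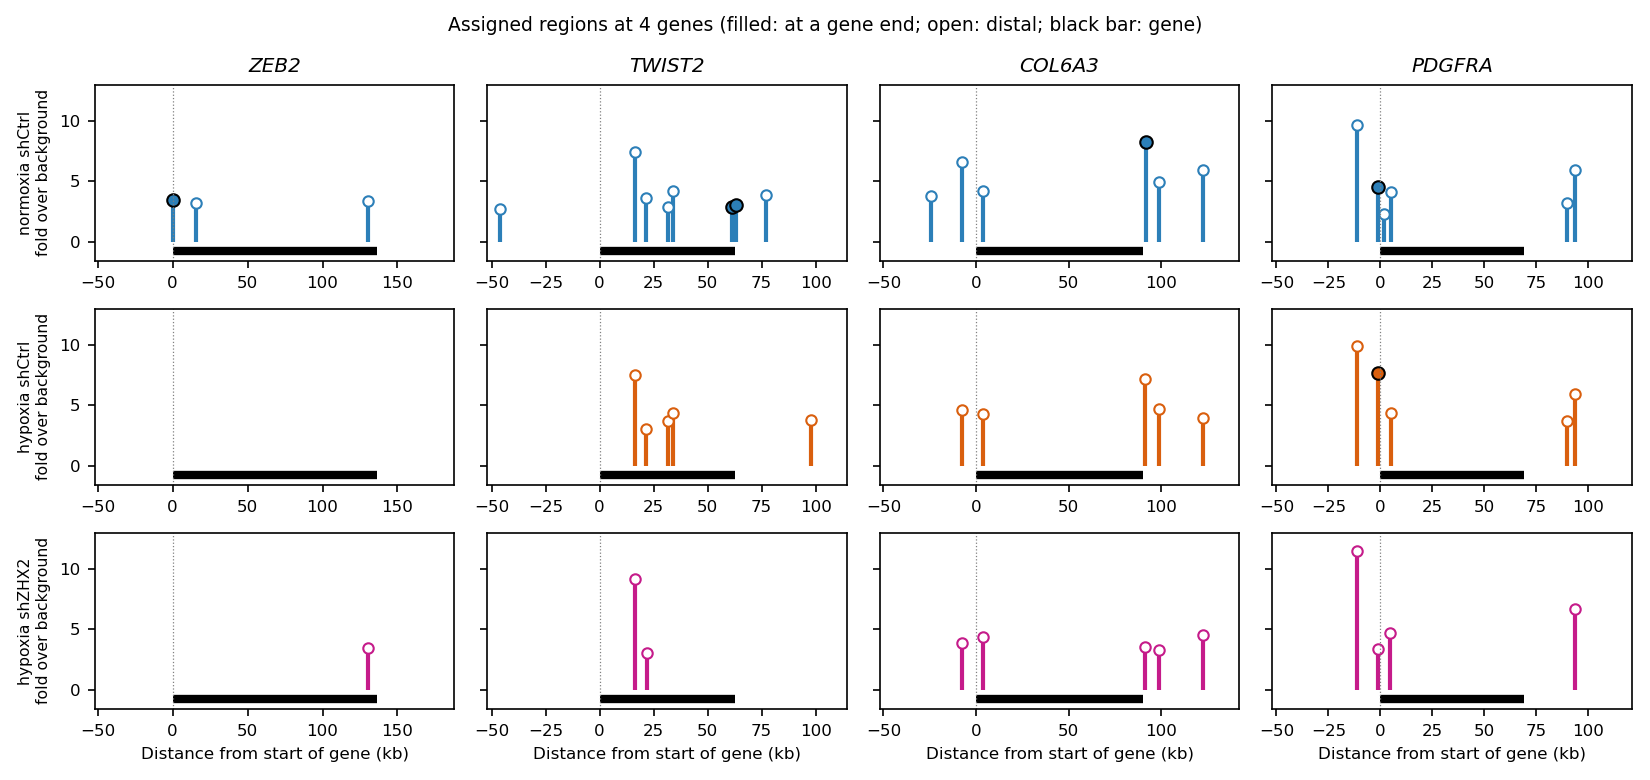
Fold enrichment over local background (vertical axis) of every region assigned to ZEB2, TWIST2, COL6A3 and PDGFRA against distance from the annotated start in the direction of transcription (horizontal axis, kb), with 1 row per list and the gene drawn as a black bar. Filled circles are gene-end regions and open circles distal regions. ZEB2 has no region in hypoxia shCtrl, and at COL6A3 and PDGFRA the filled circles of normoxia have an open counterpart at nearly the same place in the list where the filled one is missing.

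SNAI1 encodes Snail, a repressor of E-cadherin. Its end was strongly open in each list with folds of 6.46, 6.14 and 6.94 and a standing of 91.3, 90.6 and 90.9. Around this stable end SNAI1 had 9, 6 and 3 distal regions in normoxia, hypoxia shCtrl and shZHX2. The strongest of its 3 regions called in normoxia and not in hypoxia, chr20:49970781-49971073, had a fold of 2.45 and ranked at the 2.50th percentile. The strongest of its 3 regions called in hypoxia shCtrl and not with shZHX2, chr20:50009081-50009334, had a fold of 3.06.

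SNAI2 encodes Slug, the relative of Snail, and had a gene-end region in each list with folds of 4.69, 5.00 and 4.77. A distal SNAI2 region, at chr8:48925354-48926072 when merged over the lists, had the highest score among distal regions of the 6 factors in both hypoxia lists, though not the highest fold. Its folds were 4.18 in normoxia, 5.02 in hypoxia shCtrl and 5.69 with shZHX2, and it stood at 49.3, 67.3 and 75.1. A weak SNAI2 region at chr8:48902397-48902860 with a fold of 2.74 was called in hypoxia shCtrl alone.

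TWIST1 and ZEB1 held nearly the same regions in every list. TWIST1, a helix-loop-helix factor like TWIST2, had a gene-end site standing at 53.7, 55.4 and 60.3. A weak TWIST1 region, chr7:19122040-19122239, was called in both hypoxia lists with folds of 2.71 and 3.19 and not in normoxia. ZEB1, the relative of ZEB2, had a region over its start with folds of 5.90, 5.29 and 5.55 and a standing of 67.9, 61.5 and 66.3. Its only other region, a distal one, was also called in every list.

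Of the 3 mesenchymal markers, CDH2 and S100A4 were open at an end in all lists and VIM in none. CDH2 encodes N-cadherin, and its region began 114 to 185 bp before the annotated start, with folds of 6.53, 5.91 and 6.80 and a standing of 63.1, 59.5 and 67.3. Its only distal region was weak and was called in both shCtrl lists. S100A4, a calcium-binding protein linked to cell motility, had a gene-end region with folds of 5.62, 5.79 and 5.71, standing at 85.4, 82.9 and 75.9. No distal region was assigned to S100A4.

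VIM encodes vimentin, the intermediate filament of mesenchymal cells. Its nearest region began 1774 bp inside the gene in normoxia, 1876 bp in hypoxia shCtrl and 1873 bp with shZHX2, and had folds of 6.16, 6.47 and 7.39. This site, chr10:17230015-17230986, had the highest score among distal regions of the 3 markers in every list, and it stood at 72.7, 69.9 and 73.7. A VIM site beyond the far end at chr10:17257643-17258320 had higher folds in the shCtrl lists, 8.56 and 8.21, and a fold of 7.10 with shZHX2. A weaker VIM site beyond the far end, chr10:17249819-17250193, stood at 25.3, 5.1 and 2.1.

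The 9 matrix genes held 50 sites, of which 30, or 60.0%, were called in all lists, close to the 63.6% over all genes. COL1A1, which encodes a chain of type I collagen, had the highest-standing gene-end site of the 35 genes, at 97.1, 97.1 and 96.8, with folds of 5.99, 6.14 and 6.43. Its partner COL1A2 stood much lower at its end, at 19.5, 18.9 and 15.3. COL3A1, the type III collagen gene, had a single weak region 3926 bp inside the gene in hypoxia shCtrl, with folds of 3.52 in normoxia and 3.53 in hypoxia shCtrl and no call with shZHX2.

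COL5A1, a type V collagen gene, carried 14, 13 and 9 regions in the 3 lists, the most of the 35 genes. Its start was covered in each list with folds of 4.22, 3.86 and 3.71 and stood at 74.1, 68.7 and 59.2. The strongest of its 4 regions called in hypoxia shCtrl and not with shZHX2, chr9:134802419-134802765, had a fold of 3.93. A distal site before the start, chr9:134607030-134607829, had folds of 7.39, 7.67 and 5.47 and stood at 78.1, 76.5 and 43.3, a difference of -33.3 points with shZHX2. A site near the far end, chr9:134839443-134839855, stood at 14.4, 25.0 and 0.5, while a site inside the gene, chr9:134655023-134656809, stood at 25.5, 30.4 and 50.5. The sites of this gene thus differed in both directions with shZHX2. A weak COL5A1 region, chr9:134821424-134821682, with a fold of 2.56, was called in hypoxia shCtrl alone.

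COL6A3, a type VI collagen gene, had its strongest site in both shCtrl lists beyond the far end and not at the start, while with shZHX2 3 other COL6A3 sites had higher scores. The region began 974 bp from that end in normoxia, 1026 bp in hypoxia shCtrl and 1109 bp with shZHX2, so it counted as gene-end in normoxia only although every list called it. It spanned 688 bp with a fold of 8.28 in normoxia, 475 bp with a fold of 7.21 in hypoxia shCtrl, and 306 bp with a fold of 3.54 with shZHX2. Its standing was 60.5, 57.7 and 11.4. The difference from hypoxia shCtrl to shZHX2 was -46.3 points, and 10 of 13377 gene-end sites differed as far in that direction. The site was set beside gene-end sites although its regions in both hypoxia lists were classed as distal. Distal sites shifted this way more often: 2.55% stood lower by 30 points or more, against 0.725% of gene-end sites. A second site beyond the same end, chr2:237315176-237315578, stood at 25.5, 30.1 and 6.2. A COL6A3 site before the start, chr2:237421496-237421944, stood at 43.8, 28.7 and 18.7.

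FN1 encodes fibronectin, and its start was covered in each list, with folds of 6.03, 4.39 and 5.23. The site stood at 48.3 in normoxia, 25.7 in hypoxia shCtrl and 40.9 with shZHX2. The first difference was -22.6 points, and 73 of 13377 gene-end sites differed as far in that direction. Those sites were not matched for standing. Among distal sites 3.53% stood lower by 20 points or more, against 0.897% of gene-end sites. A site near its far end stood at 23.4, 14.8 and 20.4. Both distal FN1 regions of normoxia, with folds of 2.91 and 3.49, were called in neither hypoxia list.

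SPARC, a secreted collagen-binding glycoprotein, had 8, 8 and 5 regions, all of them distal. The strongest distal region of the 9 matrix genes was a SPARC region, at chr5:151651895-151652496 when merged over the lists, beyond its far end, with folds of 9.40, 9.44 and 10.7 and a standing of 86.3, 87.7 and 84.9. A SPARC site before the start, chr5:151692309-151692775, stood at 38.1, 17.1 and 41.6. SPARC also had a region called in hypoxia shCtrl alone, chr5:151682161-151682509, with a fold of 2.91. The strongest of its 3 hypoxia shCtrl regions without a shZHX2 call, chr5:151702291-151702589, had a fold of 4.10.

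TGFBI and THBS1 complete the matrix genes. TGFBI, a matrix protein induced by TGF-beta, had a region over its start with folds of 10.5, 8.19 and 9.20, the highest gene-end fold of the 35 genes in each list, and it stood at 79.5, 73.6 and 71.3. TGFBI also held the only site of the 35 genes called with shZHX2 alone, chr5:136053658-136053978 with a fold of 3.27. A TGFBI region at chr5:136089880-136090079 with a fold of 2.96 was called in hypoxia shCtrl alone. THBS1 encodes thrombospondin, a matrix glycoprotein, and its start was covered in every list by a region that was assigned to the neighbouring gene LOC124903470. Of the regions assigned to THBS1 itself, a site at chr15:39621202-39621592 stood at 36.9, 10.7 and 6.6.

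Among the 3 matrix proteases only MMP14 had a region at its own end. MMP14 encodes a membrane-anchored metalloprotease, and its region lay 503 to 565 bp inside the start. The fold was 5.22 in normoxia, 3.66 in hypoxia shCtrl and 5.94 with shZHX2, and the site stood at 28.8, 13.1 and 48.2. The hypoxia shCtrl list held the lowest of the 3 values on both scales. From hypoxia shCtrl to shZHX2 the difference was 35.1 points, and 17 of 13377 gene-end sites differed as far in that direction. Those sites were not matched for standing, and the MMP14 site stood low in hypoxia shCtrl. Among distal sites 1.45% stood higher by 30 points or more, against 0.299% of gene-end sites. The distal MMP14 site, by contrast, stood at 71.9, 69.4 and 61.4.

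MMP2 and MMP9 encode the secreted gelatinases, and both had distal regions in each list. MMP9 held the distal regions with the highest scores among the 3 proteases. In normoxia this was chr20:45993312-45993937 with a fold of 7.67, and this site stood at 97.4, 90.7 and 76.2. In hypoxia shCtrl and with shZHX2 it was a region inside the gene, chr20:46013691-46014588 in hypoxia shCtrl, 1973 and 2020 bp from an end, with folds of 7.47 and 8.41. Another MMP9 site, chr20:45995337-45995957, stood at 53.6, 24.5 and 46.4. At MMP2 a site inside the gene, chr16:55495025-55495940, stood at 30.3, 52.1 and 38.8, while the stronger site outside it, with folds of 8.86, 9.91 and 10.9, above those of MMP9, stood at 83.8, 86.2 and 83.5.

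All 7 adhesion receptor genes were open at an end in all 3 lists, and 21 of their 35 sites, or 60.0%, were called in all 3, close to the 63.6% over all genes. At the integrin starts the standing was 82.6, 79.4 and 82.4 for ITGB1, the common beta subunit, and 84.1, 86.7 and 84.1 for ITGAV. The site at the start of ITGA6, a laminin receptor subunit, stood at 67.4, 61.6 and 69.0, and that of ITGA5, a fibronectin receptor subunit, stood at 66.2, 55.0 and 53.9. The gene-end site of ITGB3 stood at 79.4, 79.9 and 82.7, and that of ITGB4, which pairs with ITGA6 in hemidesmosomes, at 85.0, 82.2 and 81.9. ITGA5 and ITGB4 each had a further site near the opposite end, also called in every list. The strongest distal region of the 7 genes lay inside ITGA5 at chr12:54399306-54399739, with folds of 9.23, 9.51 and 10.4.

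Some distal sites of the integrin genes stood lower and others higher with shZHX2. A distal ITGA5 site, chr12:54435383-54435820, stood at 50.2, 39.9 and 16.5. Sites of ITGA6 and ITGB3 differed the other way: chr2:172461622-172462388 at ITGA6 stood at 22.6, 30.2 and 56.0, and chr17:47315588-47316040 at ITGB3 stood at 42.7, 35.6 and 58.9. An ITGA6 region at chr2:172455096-172455486 was called with shZHX2 with a fold of 4.09 and in normoxia with a fold of 2.90, but not in hypoxia shCtrl.

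CD44 encodes the hyaluronan receptor, a surface marker of mesenchymal-like breast cancer cells. Its start was covered in each list with folds of 4.27, 3.92 and 4.68 and stood at 39.6, 32.6 and 48.1. CD44 had 7 distal regions in normoxia, 3 in hypoxia shCtrl and 3 with shZHX2. The strongest of the 4 not called in hypoxia, chr11:35116568-35117040, lay 22131 bp before the start with a fold of 3.72. A further region of the 4 was called again with shZHX2, at chr11:35174090-35174289 with a fold of 2.87.

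Of the 3 signal genes TGFB1 and CXCR4 were open at their start in all lists. TGFB1, the ligand that induces the transition in many epithelia, had 4 sites, all called in every list, and its start stood at 26.5, 33.1 and 23.4. With shZHX2 the TGFB1 start was called as 2 separate regions where the other lists had 1. CXCR4, a chemokine receptor involved in metastasis, had a single region, over its start, with folds of 3.98, 4.21 and 4.35 and a standing of 21.7, 38.2 and 47.1.

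PDGFRA, a growth factor receptor of mesenchymal cells, had the gene-end site with the largest difference in standing among the 31 gene-end sites of the 35 genes, in both comparisons. The site lay before the start, 898 bp away in normoxia, 891 bp in hypoxia shCtrl and 1009 bp with shZHX2, so it passed the 1 kb limit in the last list although every list called it. It spanned 545 bp with a fold of 4.49 in normoxia, 422 bp with a fold of 7.69 in hypoxia shCtrl and 238 bp with a fold of 3.40 with shZHX2. Hypoxia shCtrl thus had the highest fold and shZHX2 the lowest. The standing was 31.8, 61.7 and 8.1. From normoxia to hypoxia shCtrl the difference was 29.9 points, and 10 of 13377 gene-end sites differed as far upward. From hypoxia shCtrl to shZHX2 it was -53.6 points, and 3 of 13377 differed as far downward. Those sites were not matched for standing. From normoxia to hypoxia shCtrl, 2.51% of distal sites stood higher by 20 points or more, against 0.680% of gene-end sites. The shZHX2 region was classed as distal, and 2.55% of distal sites stood lower by 30 points or more, against 0.725% of gene-end sites. Both differences use the same hypoxia shCtrl value.

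Among the other PDGFRA regions, a weak distal one at chr4:54318876-54319254 had a fold of 3.16 in normoxia and 3.69 in hypoxia shCtrl and was not called with shZHX2. The strongest distal region of the 3 signal genes lay before the PDGFRA start, at chr4:54217656-54218211 when merged over the lists, with folds of 9.66, 9.90 and 11.5 and a standing of 71.0, 74.7 and 77.9. A second annotated start of PDGFRA, inside the gene, was covered in all 3 lists by a region that stood at 42.6, 48.4 and 52.4. The window at the first annotated start was covered in none.

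Genes related to the 35 were counted in the same way. Of 20 other epithelial genes, 19 had a region at an end in each list, and of 20 other transition factors and TGF-beta pathway genes, 17 did. Of 30 other matrix, protease and integrin genes the counts were 22 in normoxia, 21 in hypoxia shCtrl and 20 with shZHX2. The percentages over all genes were 74.2%, 72.3% and 70.0%. COL4A2, a basement membrane collagen, and PLAUR, the urokinase receptor, were open at an end in both shCtrl lists and not with shZHX2, and ITGB6, an integrin of epithelia, in normoxia and with shZHX2. Their distal regions of normoxia were not called in hypoxia shCtrl in 22.7%, 20.5% and 28.9% of cases in the 3 lists of genes, beside 21.7% of all distal regions, and their distal regions of hypoxia shCtrl were not called with shZHX2 in 25.3%, 26.6% and 30.6%, beside 26.6% of all.

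Markers of cell identity were counted to set the line's label beside its open chromatin. Of 10 luminal breast markers 9 had a region at an end in normoxia and 8 in each hypoxia list, with TFF1 open in normoxia only and ESR1, the oestrogen receptor gene, without a region at an end in any list. Fibroblast markers were open at 4, 4 and 2 of 8 genes, with THY1 and FBLN1 called in both shCtrl lists. Blood and endothelial markers were open at 4, 3 and 2 of 9 genes, with CD3D called in both shCtrl lists and CD68 in normoxia. Over all protein-coding genes the percentages open at an end were 74.2%, 72.3% and 70.0%. The part of these marker genes in the results above was not tested. The distal regions not called in hypoxia shCtrl were 24 of 58 for luminal markers, or 41.4%, against 30.8% for fibroblast markers and 6 of 30 for blood and endothelial markers, beside 21.7% of all distal regions. Those of hypoxia shCtrl not called with shZHX2 were 20.6%, 25.0% and 41.7%, beside 26.6% of all. No interval and no expectation from score deciles was computed for these marker lists, so the percentages are not read as a trait of them.

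The 3 lists covered 60.1, 48.5 and 40.6 Mb in all. The files do not give the sequencing depth of the samples, and a shorter list can come from fewer reads or from less open chromatin, which cannot be told apart here. The 50 kb limit had few regions near it. The outermost assigned region was a COL5A1 region in every list, at 47554, 47682 and 47552 bp, and the nearest region left out lay 50251 bp from CD44 in normoxia and 50521 and 50511 bp from ITGB1 in the hypoxia lists.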

How the data were processed

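The deposited data used were 3 lists of called regions, 1 per group, with 9 columns each. The submitters' processing notes name the genome build hg38 and the tools FastQC, Bowtie2, SAMtools and MACS2. The sources used here do not give versions or settings, how a group's 3 samples became 1 list, or any shift of reads for transposase cutting. The columns used hold a deposited score, the authors' fold enrichment over local background (a ratio) and the authors' −log10 q of each region. As tested on the files, the score equals the whole part of 10 times the −log10 q in at least 99.995% of regions of each list. No column holds values per sample, and 0 columns of other samples were found.

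Gene positions came from the RefSeq table of GRCh38.p14, which shares coordinates with hg38. Distance ran from the nearer edge of a region to a gene's start or far end, ties went to the gene end nearer the middle of the region, and regions on the mitochondrial genome were left out. A region counted as called in another list when at least 1 bp overlapped. Expected percentages give each region the rate of its score decile over all genes. Promoter and miRNA sequences came from RefSeq tables. The scripts, in Python 3.11.15 with numpy 2.4.6, pandas 2.3.3, scipy 1.17.1 and matplotlib 3.10.9, were tested on simulated regions.

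The genes, their roles, the 6 other lists of genes and the motifs were chosen with earlier results of these data known. Regions given with coordinates are every gene-end region not called in all 3 lists, every region called in hypoxia shCtrl and not in normoxia or with shZHX2 and not in hypoxia shCtrl, the strongest lost region of each gene with 3 or more, and the strongest distal region of each role, strongest meaning the highest score. Sites named for their standing, or as weak or strong examples, were chosen after their values were seen. The alternatives were 9 settings of distance, window, overlap, strength, list length and gene assignment, and, added later, standing by fold and limits of 10 and 30 points.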

Additional observations from a re-analysis of the deposited data

How the results depend on the processing

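No paired analysis was possible because each group is 1 list with no values per sample, and no replicate could be left out for the same reason. Of 99 values recomputed under 9 settings, 88 stayed within their counting interval or within 1.5 times their count. All 11 did so with 20 kb in place of 50 kb, with a narrower or wider gene-end window and with an overlap of at least 50%. The same held with near misses counted as shared and with regions assigned whichever gene is nearest. Part of this tally was fixed in advance. Counts of genes open at an end do not depend on assignment distance, overlap, near misses or the nearest gene. Gene-end percentages cannot change with the 20 kb limit. Intervals around 0 of 30 reach 11.4%, so few values could leave them. In the stronger 50% of each list by score, the percentages not called were 0 at gene ends and 1.72 at distal regions for normoxia not hypoxia, 0 at distal regions for hypoxia not normoxia, 2.63 for hypoxia shCtrl not shZHX2 and 0 for shZHX2 not hypoxia shCtrl. With lists of equal length by score, the normoxia gene-end percentage was 0, and the distal percentages were 14.6 for hypoxia not normoxia and 14.6 for hypoxia shCtrl not shZHX2. With equal length by fold, the normoxia gene-end percentage was 6.67. The distal percentages were then 16.5 for normoxia not hypoxia, 17.5 for hypoxia shCtrl not shZHX2 and 19.3 for shZHX2 not hypoxia shCtrl. By construction, lists of equal length leave out the weakest regions of the longer lists and draw the percentages of both directions together. The counts of sites by standing, a measure added after the data were seen, also moved. Ranked by fold, 2 gene-end sites stood lower and 2 higher in hypoxia than in normoxia, and 4 distal sites stood higher. At 10 points, 4 gene-end sites stood lower and 5 higher in hypoxia, and 17 distal sites lower and 10 higher; with shZHX2, 3 gene-end sites stood higher, and 14 distal sites lower and 9 higher. At 30 points, 0 gene-end and 0 distal sites stood lower or higher in hypoxia, and with shZHX2 1 distal site stood lower and 0 higher. By fold, PDGFRA stood at 36.0, 87.2 and 14.5 in the 3 lists, COL6A3 at 91.4, 82.9 and 18.2, and MMP14 at 50.8, 22.4 and 64.3, so the direction at these sites was the same on both scales.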

Other observations

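The miR-200 family restrains ZEB1 and ZEB2 in epithelial cells and is encoded at 2 clusters. Its members fall into groups by seed, bases 2 to 8 of the mature miRNA, shown in capitals in the RefSeq sequences below. They were added after the data were seen.
hsa-miR-200b-3p: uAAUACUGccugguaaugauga
hsa-miR-200c-3p: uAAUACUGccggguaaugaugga
hsa-miR-429: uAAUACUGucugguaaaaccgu
hsa-miR-200a-3p: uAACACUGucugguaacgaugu
hsa-miR-141-3p: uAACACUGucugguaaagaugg

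The nearest region upstream of each cluster was taken at whatever distance, so finding one in every list says little by itself. Distances for other loci were not computed. On chromosome 1 the nearest region upstream of MIR200B ended 3420 bp before the mature sequence in normoxia, 3394 bp in hypoxia shCtrl and 3379 bp with shZHX2, with folds of 5.21, 4.72 and 4.56. On chromosome 12 the region upstream of MIR200C ended 308, 344 and 279 bp before the mature sequence, with folds of 3.21, 3.02 and 3.29. No test between the lists was possible for these values.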
